A study of Mus musculus with 6 samples.

Results

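The proteasome subunit genes were examined in quadriceps muscle of Prr14-WT and Prr14-KO mice. Members were the rows of the gene table whose symbol is Psma, Psmb, Psmc or Psmd followed by a number, which gave 39 of 22036 listed genes. By particle, 16 encode subunits of the core particle (Psma1 to Psma8, Psmb1 to Psmb7 and Psmb11), 3 the inducible core subunits Psmb8, Psmb9 and Psmb10, and 20 the regulatory particle or its assembly chaperones (Psmc1 to Psmc6 and Psmd1 to Psmd14). The study concerns PRR14 in mechanotransduction and myofibre identity. Full-length complementary DNA of total muscle RNA was sequenced on a nanopore instrument in 3 libraries of each genotype, numbered 1 to 3 here, and whether each library came from a separate mouse is not stated, so the tests below measure the spread between libraries. No source used here gives the age or sex of the mice, the kind of Prr14 allele or any treatment.

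The proteasome is the protease that degrades proteins tagged with ubiquitin. Its core particle is a barrel of outer alpha rings (Psma genes) and inner beta rings (Psmb genes), the latter holding the active sites. The regulatory particle caps the barrel: a ring of ATPases (Psmc genes) unfolds the substrate, and the non-ATPase subunits (Psmd genes) bind ubiquitin chains, remove them and hold the cap together. Inducible beta subunits replace their constitutive counterparts in immune cells and under interferon, which favours peptides for antigen presentation. In skeletal muscle the ubiquitin-proteasome system degrades myofibrillar proteins, and its genes are known to rise in several forms of atrophy.

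The libraries held 1436099 to 1712975 counts, and 6680 genes passed the filter on low counts. Levels are given as CPM, counts scaled to one library size, with TMM factors that set those sizes by the bulk of the genes. These factors were 0.862 to 0.970 in WT and 1.06 to 1.11 in KO libraries, and the 20 most abundant genes took 39.2% to 44.6% of WT counts but 34.3% to 37.0% of KO counts. All 7 muscle fibre markers examined (Ckm, Acta1, Mb, Tnnt3, Des, Ttn and Pygm) were present, with a summed level of 120210 to 153521 CPM in WT and 96759 to 108176 CPM in KO. The part of this difference in the subunit results was not tested. Prr14 itself had 9, 11 and 12 counts in the WT libraries and 4, 10 and 3 in the KO libraries, and its log2 difference of -1.10 did not pass the edgeR quasi-likelihood test (adjusted p = 0.196). The library labelled KO replicate 2 was thus near the WT level of the targeted gene, and no source used here gives the part of the gene that the allele removes.

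At the level of the whole family, a few subunits were higher in KO muscle and none was called lower. In bulk muscle, fewer cells of a type and less RNA per cell cannot be told apart. Of 36 tested subunits, 3 were higher at an adjusted p under 0.05 (Psma2, Psmd2 and Psmd10), which is 8.33% of them against 2.98% of all tested genes. DESeq2 and limma-voom each called 1 higher (Psma2), which is 2.78%, against 2.11% and 2.26% of all genes. No subunit was lower by edgeR, DESeq2 or limma-voom, against 3.28% of all genes lower by edgeR. The lower count at an unadjusted p under 0.05 was 1 (Psmb8). In either direction, 10 of 36 subunits and 1333 of 6680 genes had an unadjusted p under 0.05. At an unadjusted p under 0.05, 9 subunits were higher (25%), against 10.7% of all genes. The 3 KO libraries all lay above the 3 WT libraries for 8 subunits (22.2%), against 13.5% of all genes. They all lay below for 1 subunit (2.78%), against 12.2% of all genes. The other 27 tested subunits had overlapping genotypes.

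Both particles held more positive than negative differences. In the core particle, 1 of 14 tested subunits was higher, 10 had a positive log2 difference and 4 a negative one, with a median of 0.11. In the regulatory particle, 2 of 20 were higher, 18 were positive and 2 negative, with a median of 0.20. Over all tested genes the median was 0.02 and 52.0% were positive. Among the 4133 genes in the same range of WT levels the median was -0.02 and 48.0% were positive. Whether the medians of the particles differ from each other was not tested.

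**Figure D1:**
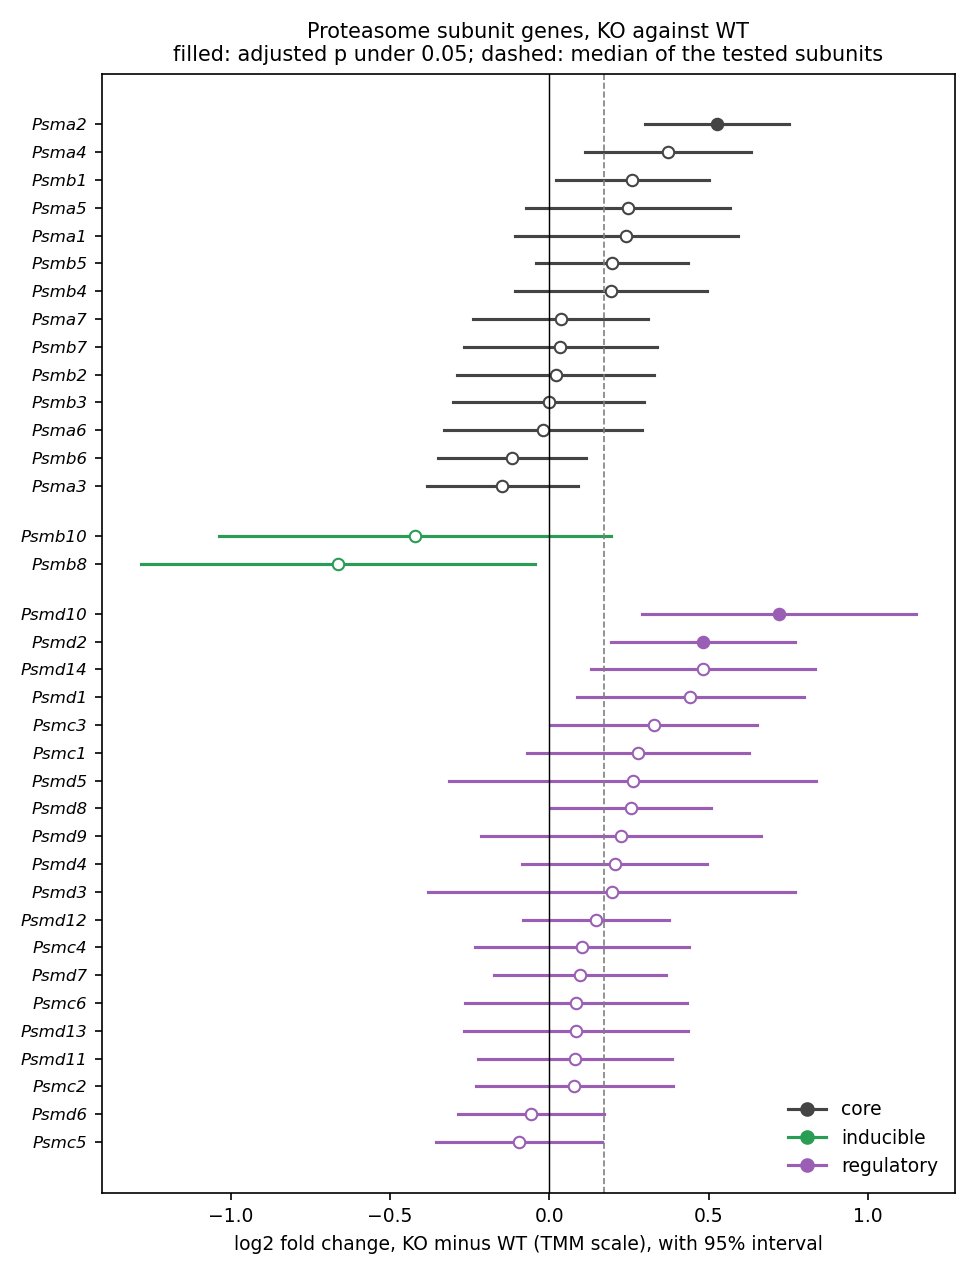
Log2 difference of KO from WT (horizontal axis) for each of the 36 tested subunits, grouped by particle. Points are edgeR estimates and bars 95% confidence intervals; filled points pass an adjusted p of 0.05. Psma2, Psmd2 and Psmd10 are the filled points, and most core and regulatory subunits lie to the right of 0 with intervals that include it.

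The medians and calls moved with single libraries. KO replicate 1 was the highest KO library for 32 of 34 tested constitutive subunits, against 37.7% of all genes. Its median log2 distance from the mean of the other KO libraries was 0.29 over the core particle and 0.34 over the regulatory particle, and it lay above that mean for all 20 regulatory subunits. Without it, 20 subunits were positive and 16 negative, against 50.9% of all genes positive. The medians were then 0.03 (core) and 0.10 (regulatory), against 0.008 over all genes. Psma2 was the 1 subunit called without that library, against 2.17% of all genes called higher. Without KO replicate 2, the library with the near-WT Prr14 count, 3 subunits were called higher (Psma2, Psmd2 and Psmd14), against 2.56% of all genes, and the medians were 0.15 and 0.23. The medians were also lower without WT replicate 1, at 0.08 and 0.11, and without WT replicate 2, at 0.05 and 0.10. Without WT replicate 3 they were higher, at 0.15 and 0.26, and Psma2 was the 1 subunit called, against 1.83% of all genes called higher. edgeR called no subunit without WT replicate 1, against 1.43% of all genes called higher, and none without WT replicate 2, against 1.19%. At an unadjusted p under 0.05, 4 of 37 tested subunits were higher in each of those fits, and no other tool was run on them. The share of all genes at that threshold was 10.7% with all 6 libraries and was not computed for those fits. Among WT libraries, replicate 3 was the highest for 26 of 34 constitutive subunits, against 36.0% of all genes.

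**Figure D2:**
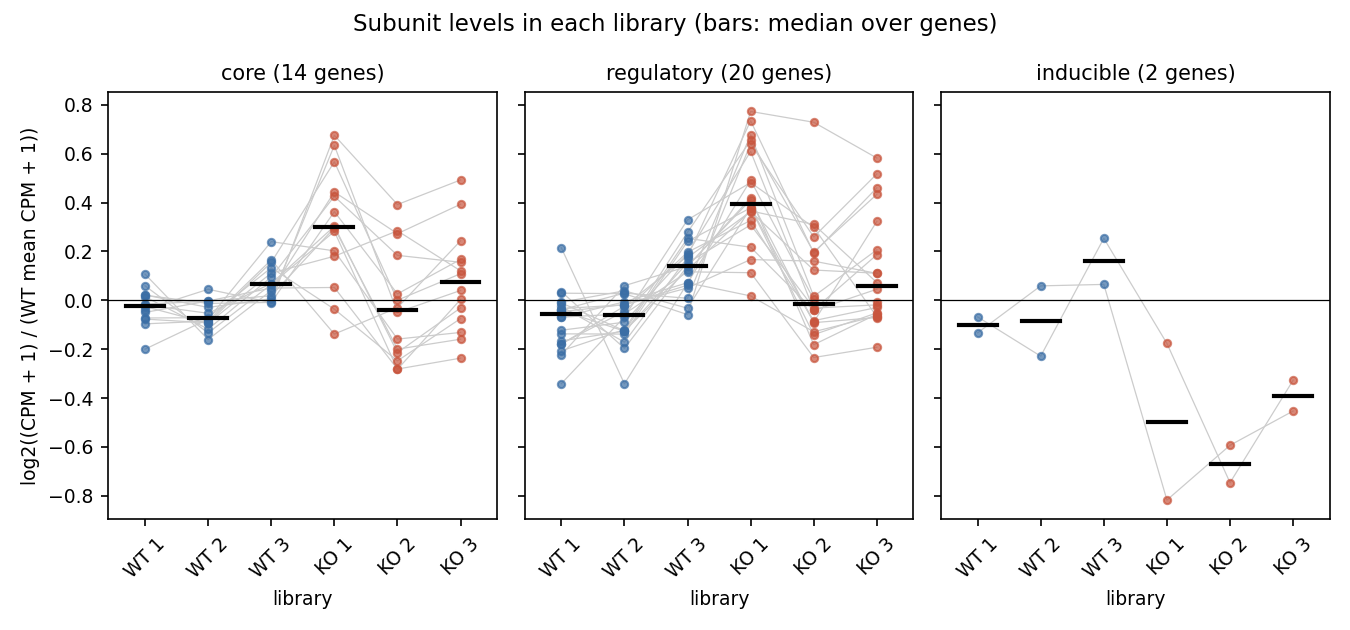
Log2 ratio of each subunit's level to its WT mean (vertical axis, on CPM plus 1) in each of the 6 libraries, for the core, regulatory and inducible subunits that were tested; short lines mark medians. The core median was 0.30 in KO replicate 1 against -0.04 and 0.07 in KO replicates 2 and 3, and the regulatory median was 0.39 against -0.01 and 0.06.

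Summed over all 39 subunits, the level was 7556, 7478 and 8362 CPM in WT and 9871, 7789 and 8207 CPM in KO. These groups overlapped, since WT replicate 3 lay above KO replicates 2 and 3. The KO to WT ratio of the sums was 1.11, and 1.03 without KO replicate 1. As a share of all counts, without TMM scaling, the subunits took 0.721%, 0.691% and 0.713% of WT libraries and 1.08%, 0.838% and 0.854% of KO libraries, a ratio of 1.30 (1.19 without KO replicate 1) with no overlap. With library totals in place of TMM scaling, 14 subunits were called higher (38.9%), against 9.78% of all genes, and KO lay wholly above WT for 23 subunits (63.9%), against 28.2% of all genes. That scaling moved the median of all genes to 0.25. Relative to the median of all genes, the core median was 0.10 higher and the regulatory median 0.19 higher under library totals, and 0.10 and 0.18 higher under TMM.

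The proportion of the particles overlapped between genotypes. Summed regulatory over summed core levels was 0.837, 0.862 and 0.887 in WT and 0.905, 0.884 and 0.868 in KO. The core particle summed to 4169 ± 215 CPM in WT and 4556 ± 544 CPM in KO (SD, n = 3), and the regulatory particle to 3596 ± 275 and 4040 ± 557 CPM.

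Levels between genes are given per kilobase of coding sequence, since subunits run from 603 to 2859 coding bases. Reads of full-length complementary DNA need not rise in number with gene length, so this division can favour short genes. On this scale the core genes stood above the regulatory genes in WT muscle, with a median of 371 against 146 CPM per kilobase. Without the division the gap was smaller. The core median, with the unexpressed Psma8 and Psmb11 included, was 240, 227 and 253 CPM in the WT libraries. The regulatory median was 174, 157 and 202 CPM. Psma3, an alpha ring subunit, was highest at 709 ± 24.5 CPM per kilobase (SD, n = 3), followed by the catalytic Psmb6 at 661 ± 55.5 and the alpha subunit Psma2 at 581 ± 7.41. The ranges of Psma3 and Psmb6 overlapped. The range of Psmb1 (553 ± 40.9) overlapped those of its neighbours Psma2 and Psma7 (548 ± 24.0), which did not overlap each other. Psmb4, a non-catalytic beta subunit, was the lowest core gene expressed, at 141 ± 4.16 CPM per kilobase.

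Among regulatory genes the lid subunits Psmd7 (337 ± 34.1) and Psmd8 (314 ± 27.2 CPM per kilobase) were highest on the per-kilobase scale, with overlapping ranges. In CPM without division by length, the ATPase gene Psmc5 had the highest WT mean of the regulatory genes, at 354 CPM. The lid subunit Psmd3 (9.40 ± 1.91) and the assembly chaperone Psmd5 (9.95 ± 2.51) were lowest, also overlapping. Psmd3 is a structural part of the lid, yet its listed level was far below that of the other lid genes. How reads were assigned to it is not stated in the labels. In KO muscle Psma2 reached 836 ± 84.4 CPM per kilobase, above every other subunit's KO mean.

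Psma8, a form of the alpha ring known from testis, and Psmb11, the beta subunit of thymic cortical epithelium, had 0 counts in all 6 libraries. A count of 0 allows up to 3 counts, which was 1.72 to 2.19 CPM in these libraries. Both are outside the tested set.

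Psma2 (ENSMUSG00000015671, GRCm38 chr13:14613240-14674236, plus strand, 8 exons) encodes a subunit of the alpha ring, which gates entry to the core. It was the most robust difference in the family. Its level was 414, 404 and 405 CPM in WT and 652, 535 and 574 CPM in KO. Every KO library was above every WT library, and the lowest KO value exceeded the highest WT value by more than the whole WT range. The fold was 1.44 (95% interval 1.23 to 1.68; log2 difference 0.53, SE 0.11, edgeR adjusted p = 0.0070). It passed in 13 of 15 alternative analyses and missed without WT replicate 1 (edgeR adjusted p = 0.0549) and without WT replicate 2 (edgeR adjusted p = 0.0788).

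The other alpha subunits divided around a median of 0.24 on the log2 scale. Psma4 was at 216, 179 and 206 CPM in WT and 273, 242 and 264 CPM in KO, without overlap, and missed the threshold (log2 difference 0.37, 95% interval 0.11 to 0.63, edgeR adjusted p = 0.0892). Psma3 had the lowest log2 difference of the alpha genes (-0.15, edgeR adjusted p = 0.518). Its levels were 524, 541 and 561 CPM in WT and 562, 446 and 460 CPM in KO, so that KO replicate 1 lay just above all WT libraries and the other KO libraries below them. Psma1 shows the weight of that library: 241, 233 and 239 CPM in WT against 370, 230 and 245 CPM in KO. KO replicate 1 lay far above all WT libraries, KO replicate 3 just above them and KO replicate 2 just below them. The remaining tested alpha genes (Psma5, Psma6 and Psma7) overlapped between genotypes and did not pass.

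The constitutive beta subunits had a median log2 difference of 0.03, and none of the 7 passed edgeR, DESeq2 or limma-voom. Psmb1 was higher at an unadjusted edgeR p under 0.05, 1 of the 7 against 10.7% of all genes. Psmb1, a beta subunit without an active site, was at 402, 367 and 425 CPM in WT and 535, 452 and 443 CPM in KO. The groups did not overlap, and the log2 difference of 0.26 missed the threshold (edgeR adjusted p = 0.211). Psmb5, which carries the chymotrypsin-like site, was at 279, 266 and 307 CPM in WT and 322, 347 and 309 CPM in KO. Its groups were separate by a narrow margin, and its log2 difference of 0.20 (95% interval -0.04 to 0.44) did not pass (edgeR adjusted p = 0.363).

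Psmb6, with the caspase-like site, was at 449, 449 and 518 CPM in WT and 460, 397 and 448 CPM in KO, overlapping (log2 difference -0.12, edgeR adjusted p = 0.616). Psmb7, with the trypsin-like site, was at 157, 158 and 188 CPM in WT and 152, 164 and 199 CPM in KO. This was the closest match between genotypes among the 3 catalytic genes (log2 difference 0.03, 95% interval -0.27 to 0.34). The sign of Psmb6 and of Psma3 was positive with library totals (0.12 and 0.09), where the median of all genes was also higher.

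The ATPase ring did not contain a gene that passed. All 6 Psmc genes overlapped between genotypes, with a median log2 difference of 0.09, and neither DESeq2 nor limma-voom called any. Psmc3 was higher at an unadjusted edgeR p under 0.05, 1 of the 6 against 10.7% of all genes. Psmc3 was at 308, 314 and 332 CPM in WT and 509, 322 and 367 CPM in KO (log2 difference 0.33, edgeR adjusted p = 0.242). KO replicate 2 lay within the WT range, and KO replicate 1 was far above the rest. Psmc1 was alike in form, at 184, 188 and 229 CPM in WT and 306, 195 and 228 CPM in KO (log2 difference 0.28, edgeR adjusted p = 0.381). Psmc5 was lowest, at 337, 340 and 383 CPM in WT and 382, 300 and 309 CPM in KO (log2 difference -0.10, edgeR adjusted p = 0.728, and 0.14 with library totals).

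Of the large scaffolds of the regulatory base, Psmd2 was higher in KO and Psmd1 did not pass. Psmd2 (ENSMUSG00000006998, GRCm38 chr16:20651652-20663414, plus strand, 21 exons) docks ubiquitin shuttle proteins. It was at 136, 143 and 141 CPM in WT and 219, 168 and 201 CPM in KO, with no overlap and the highest value in KO replicate 1. The fold was 1.40 (95% interval 1.14 to 1.71; log2 difference 0.48, SE 0.13, edgeR adjusted p = 0.0475). This call was close to the threshold and was lost in 10 of 15 alternatives, among them DESeq2 (adjusted p = 0.152), limma-voom (adjusted p = 0.0661) and edgeR without any 1 library other than KO replicate 2 (adjusted p = 0.109 without KO replicate 1 to 0.194 without WT replicate 2).

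Psmd1, the companion scaffold, was at 95.6, 102 and 134 CPM in WT and 174, 127 and 150 CPM in KO. KO replicate 2 lay below WT replicate 3, and the log2 difference of 0.44 did not pass (edgeR adjusted p = 0.146). Psmd4, a ubiquitin receptor, was at 175, 158 and 201 CPM in WT and 229, 194 and 192 CPM in KO, overlapping (log2 difference 0.20, edgeR adjusted p = 0.446). Psmd14, the deubiquitinase that removes the chain before degradation, was at 90.5, 101 and 116 CPM in WT and 171, 117 and 141 CPM in KO. Its groups were separate by a small margin, and the log2 difference of 0.48 (95% interval 0.13 to 0.83) missed the threshold (edgeR adjusted p = 0.103).

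Over the 8 lid genes, which form the outer cover of the cap, the median log2 difference was 0.12. None passed edgeR, DESeq2 or limma-voom. Psmd14 and Psmd8 were higher at an unadjusted edgeR p under 0.05, 2 of the 8 against 10.7% of all genes. Psmd6 had the lowest value of the Psmd genes, at 320, 334 and 353 CPM in WT and 340, 307 and 321 CPM in KO (log2 difference -0.06, 95% interval -0.29 to 0.17, and 0.18 with library totals). Its groups overlapped almost entirely.

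The largest fold in the family belonged to Psmd10 (ENSMUSG00000031429, GRCm38 chrX:140948429-140956728, minus strand, 5 exons). It encodes gankyrin, a chaperone for assembly of the ATPase base that is not part of the finished proteasome. Its level was low and even, at 21.2, 21.1 and 19.9 CPM in WT and 36.1, 35.0 and 31.5 CPM in KO. Each genotype formed a tight group, and KO replicate 1 was close to KO replicate 2. The fold was 1.65 (95% interval 1.22 to 2.22; log2 difference 0.72, SE 0.20, edgeR adjusted p = 0.0479). The call was lost in 11 of 15 alternatives, among them DESeq2 (adjusted p = 0.218), limma-voom (adjusted p = 0.0538) and edgeR without any 1 of the 6 libraries (adjusted p = 0.0690 to 0.171). The log2 difference was 0.68 to 0.96 over the 15. The other base chaperones among the members, Psmd5 and Psmd9, overlapped between genotypes (log2 differences 0.26 and 0.22).

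The exons of 11 of the 39 genes share bases with another annotated gene, and Psma2, Psmd2 and Psmd10 are not among them. Psmd9 shares 1849 bases with the noncoding gene Gm26745 on the opposite strand. Psmb7 shares 405 with Nek6. Psmd1 shares 301 with Gm21972 on the same strand. Since the labels do not state whether counting used strand, reads of such pairs cannot be told apart.

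The inducible subunits were expressed at a low level. Per kilobase of coding sequence, Psmb10 stood at 18.7 ± 3.47, Psmb8 at 16.5 ± 1.35 and Psmb9 at 7.07 ± 0.355 CPM in WT muscle (SD, n = 3), below all 7 constitutive beta genes that were tested. Both tested inducible genes, Psmb8 and Psmb10, had a negative log2 difference, and neither passed edgeR, DESeq2 or limma-voom. Psmb9 was below the filter on low counts and was not tested.

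Psmb8 (ENSMUSG00000024338, GRCm38 chr17:34197721-34201454, plus strand, 6 exons) replaces Psmb5. It was at 12.4, 14.3 and 14.4 CPM in WT and 7.34, 8.74 and 9.74 CPM in KO. All KO libraries lay below all WT libraries, the 1 subunit of 36 with this order. The log2 difference was -0.66 (SE 0.29, 95% interval -1.28 to -0.04), with an unadjusted edgeR p of 0.0374 and an adjusted p of 0.217; it stayed negative in all 15 alternatives and passed in none. Psmb8 shares 498 exonic bases with the antisense gene Gm20496.

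Psmb10 (ENSMUSG00000031897, GRCm38 chr8:105935735-105938444, minus strand, 8 exons) replaces Psmb7. It was at 14.6, 12.9 and 18.5 CPM in WT and 13.5, 8.74 and 12.0 CPM in KO. The groups overlapped through KO replicate 1, and the log2 difference of -0.42 (95% interval -1.04 to 0.19) did not pass (edgeR adjusted p = 0.466). Psmb9 (ENSMUSG00000096727, GRCm38 chr17:34181987-34187764, minus strand, 6 exons) replaces Psmb6 and had 6, 7 and 7 counts in WT and 11, 11 and 9 in KO. These amount to 4.38, 4.77 and 4.79 CPM in WT and 6.73, 6.87 and 5.16 CPM in KO, so the KO values lay above WT, opposite to Psmb8. Psmb9 shares 212 exonic bases with Tap1 on the opposite strand.

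Set against the constitutive subunit it replaces, per coding length, Psmb8 made up 4.07%, 4.89% and 4.28% of the Psmb8 and Psmb5 total in WT and 2.13%, 2.36% and 2.92% in KO. The genotypes were separate, at 4.41% ± 0.422 and 2.47% ± 0.408 (SD, n = 3). The Psmb9 share of the total with Psmb6 was 1.05%, 1.14% and 0.996% in WT and 1.56%, 1.84% and 1.24% in KO, separate in the opposite direction. The Psmb10 share of the total with Psmb7 was 8.62%, 7.67% and 9.06% in WT and 8.23%, 5.12% and 5.79% in KO, with an overlap at KO replicate 1. With 3 libraries a group an exact permutation test cannot go below 0.10, so none was run on these shares.

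**Figure D3:**
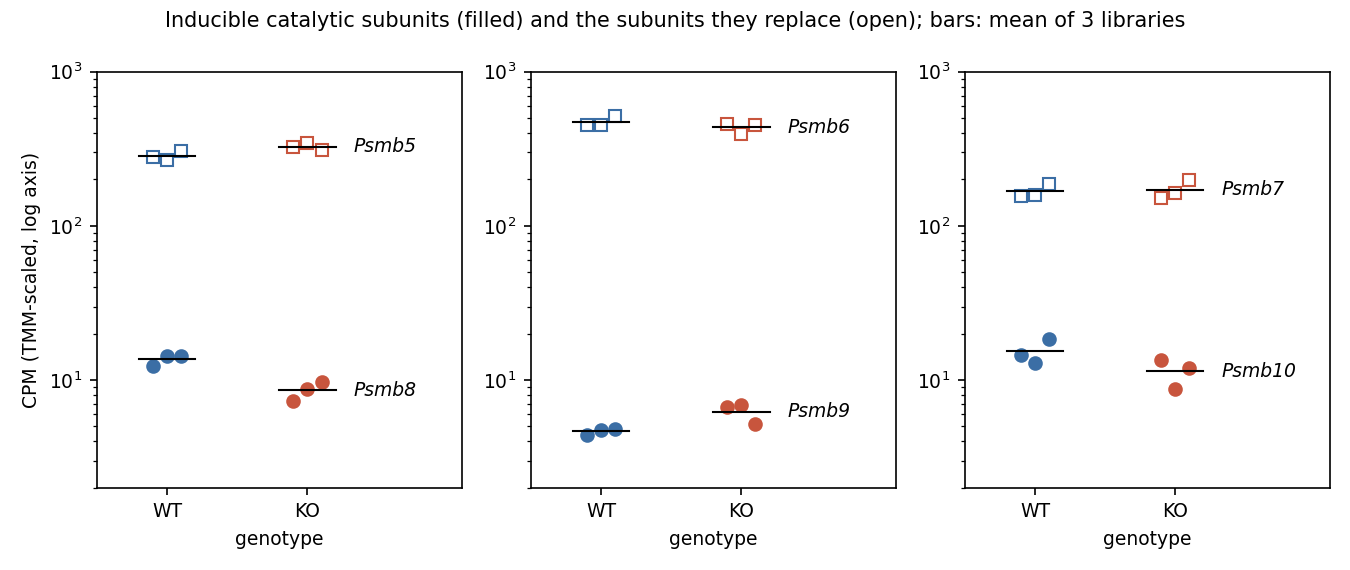
Level in CPM (vertical log axis) of Psmb8, Psmb9 and Psmb10 (filled) and of Psmb5, Psmb6 and Psmb7, which they replace (open), by genotype; points are libraries and short lines means. Psmb8 was lower in every KO library, Psmb9 was higher in every KO library on 6 to 11 counts, and Psmb10 overlapped.

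Leukocytes are a rich source of these inducible subunits, so the levels of 19 leukocyte markers are given beside them. All 19 were detected in at least 1 library, and their sum was 1146, 544 and 298 CPM in WT and 332, 329 and 414 CPM in KO. S100a8 and S100a9 were high in WT replicate 1 alone. All 11 markers that passed the filter had a negative log2 difference, with a median of -0.64 (-0.18 without WT replicate 1, and -0.42 with library totals). The log2 difference of Psmb8 was -0.77 to -0.43 over the 15 alternatives. None of the 11 markers was called by edgeR, DESeq2 or limma-voom. Lower at an unadjusted edgeR p under 0.05 was 1 of the 11, against 1333 of 6680 genes in either direction. The summed level of these markers was 888, 520 and 289 CPM in WT and 315, 320 and 399 CPM in KO, so WT replicate 3 lay below every KO library. Psmb8 had 17, 21 and 21 counts in WT and 12, 14 and 17 in KO. The counts of Ptprc, the pan-leukocyte marker, were 8, 9 and 5 in WT and 2, 2 and 7 in KO. The part of leukocyte RNA in the Psmb8 result was not tested.

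Of the antigen processing and interferon response genes, 9 of 12 were tested and none was called by edgeR, DESeq2 or limma-voom. Psme1 was higher at an unadjusted edgeR p under 0.05, 1 of the 9 against 10.7% of all genes. The median log2 difference of the 9 was 0.32, with 7 positive and 2 negative. Tapbp, which links peptide transporter and class I molecule, was at 12.4, 8.86 and 9.58 CPM in WT and 18.4, 15.0 and 13.2 CPM in KO. The groups did not overlap, and the log2 difference of 0.59 did not pass (edgeR adjusted p = 0.274).

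Psme1, a subunit of the interferon-responsive activator that can cap the core in place of the regulatory particle, was at 37.2, 45.7 and 40.4 CPM in WT and 54.5, 55.6 and 56.1 CPM in KO. The KO libraries were nearly equal and all above WT, but the log2 difference of 0.43 did not pass (edgeR adjusted p = 0.160). Psme1 also belongs to the list of activators, inhibitor, assembly and associated factors, of which 17 of 18 were found and 16 tested. None of those was called by edgeR, DESeq2 or limma-voom. Psme1 and Adrm1 were higher at an unadjusted edgeR p under 0.05, 2 of the 16 against 10.7% of all genes. Over the 16, the median log2 difference was -0.11 and turned to 0.13 with library totals.

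Adrm1, a ubiquitin receptor of the regulatory particle whose symbol lies outside the family rule, was at 82.4, 83.8 and 73.9 CPM in WT and 110, 116 and 88.8 CPM in KO. The groups were separate, with a log2 difference of 0.38 that did not pass (edgeR adjusted p = 0.174). KO replicate 1 was the highest KO library for 4 of these 16 genes, for 6 of the 9 antigen processing genes and for 6 of the 12 ubiquitin genes, against 37.7% of all genes and 32 of 34 constitutive subunits.

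Transcription of proteasome genes is driven by the factor encoded by Nfe2l1, which the protease Ddi2 cleaves to its active form. Of the 8 genes listed for this pathway 6 were tested, and none was called by edgeR, DESeq2 or limma-voom, with 0 at an unadjusted edgeR p under 0.05. Ddi2 was at 11.7, 18.4 and 17.8 CPM in WT and 13.5, 5.0 and 11.5 CPM in KO, overlapping (log2 difference -0.67, edgeR adjusted p = 0.309). Nfe2l2, the related oxidative stress factor, was at 54.0, 70.2 and 64.4 CPM in WT and 67.9, 76.2 and 70.5 CPM in KO, also overlapping (log2 difference 0.18, edgeR adjusted p = 0.579). Nfe2l1, named for its role after its values were seen, was at 152, 175 and 136 CPM in WT and 156, 186 and 172 CPM in KO (log2 difference 0.15, edgeR adjusted p = 0.608).

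Ubiquitin genes and the factors that deliver substrates included 2 genes that were higher in KO, of 12 tested (16.7%, against 2.98% of all genes). DESeq2 and limma-voom each called 1 (8.33%), against 2.11% and 2.26% of all genes. This list was chosen with earlier results of these data known, so these shares are description only. The median log2 difference over the list was 0.11. Ubb, which encodes polyubiquitin, was at 2665, 2668 and 3179 CPM in WT and 4643, 3825 and 4174 CPM in KO. No KO library reached down to the WT range, and the log2 difference was 0.57 (SE 0.11, edgeR adjusted p = 0.0046). It missed the threshold without WT replicate 1 (edgeR adjusted p = 0.0671) and without WT replicate 2 (edgeR adjusted p = 0.0848). Vcp, the ATPase that extracts ubiquitinated proteins from complexes and membranes, was at 306, 288 and 297 CPM in WT and 477, 347 and 398 CPM in KO. The groups were separate, with a log2 difference of 0.46 (SE 0.12, edgeR adjusted p = 0.0428) that was lost in 9 of 15 alternatives, among them DESeq2 (adjusted p = 0.151) and edgeR without any 1 library other than KO replicate 2 (adjusted p = 0.0989 without KO replicate 3 to 0.225 without WT replicate 2).

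**Figure D4:**
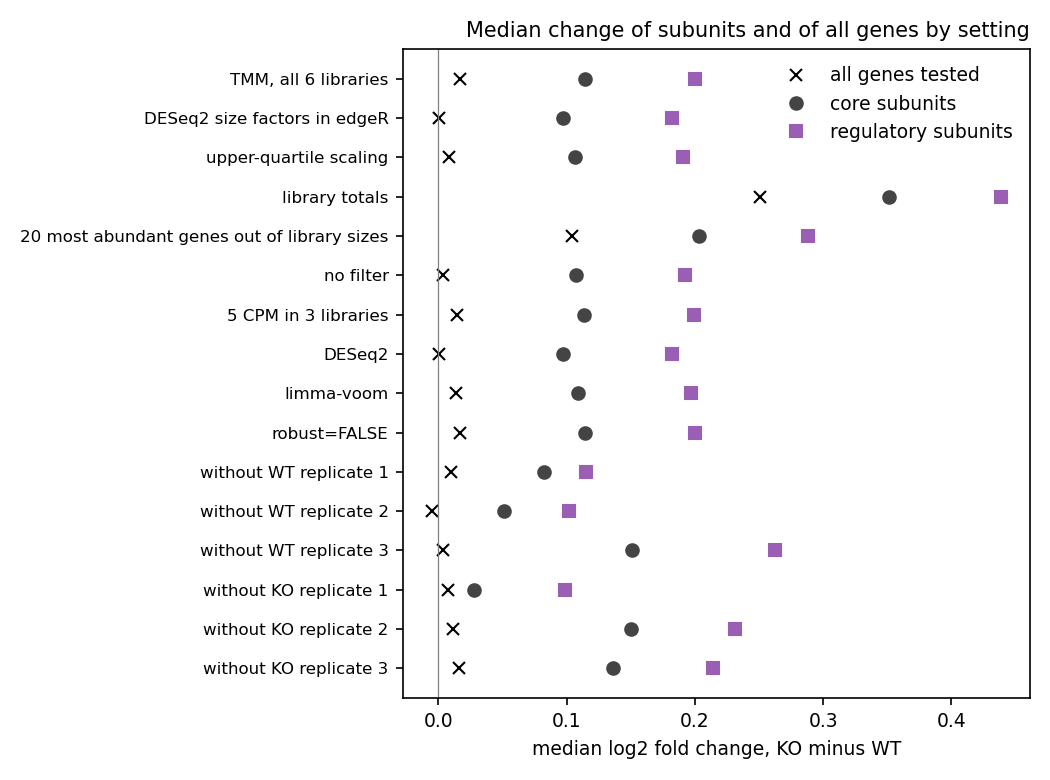
Median log2 difference of KO from WT (horizontal axis) of the core subunits, the regulatory subunits and all tested genes under each analysis setting (rows). Both particles lie to the right of all genes in every setting, the core median falls to 0.03 without KO replicate 1, and library totals shift all 3 medians to the right.

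Promoter stretches with a match are shown for Psma2 and Psmd10, which were higher in KO, and for the catalytic subunits Psmb5 and Psmb6, because proteasome genes are known to be driven through antioxidant response elements and CCAAT boxes. RefSeq promoters (GRCm38.p6, 250 bases before to 50 after the start) matched 32 of the 39 genes. Motifs were searched on both strands and may overlap one another. The antioxidant response element, TGACNNNGC, was in the promoters of 5 of 32 subunit genes (15.6%: Psmb5, Psmb6, Psmc6, Psmd9 and Psmd12), against 14.0% of 27025 genes. The CCAAT letters were in 13 of 32 (40.6%), against 41.1% of all genes, so both shares were near the background. Psmd2, which was also higher in KO, had neither motif in its promoter. A further CCAAT of Psmd10 lay 230 bases before the start, outside the stretch shown. In the stretches below, written 5′ to 3′ on the gene's strand, capitals mark the motif, with ATTGG being CCAAT on the opposite strand.
Psma2 (chr13:14613158-14613222, plus strand, CCAAT 54 bases before the start): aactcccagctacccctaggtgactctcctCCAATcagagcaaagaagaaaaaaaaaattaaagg
Psmd10 (chrX:140956729-140956788, minus strand, matches 47 and 24 bases before the start): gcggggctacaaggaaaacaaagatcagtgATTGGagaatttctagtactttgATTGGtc
Psmb5 (chr14:54618023-54618072, minus strand, antioxidant response element 47 bases before the start): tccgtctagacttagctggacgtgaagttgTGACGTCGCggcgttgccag
Psmb6 (chr11:70525318-70525356, plus strand, antioxidant response element 9 bases before the start): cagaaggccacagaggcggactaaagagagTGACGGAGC

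The interferon response element, searched as GAAA repeated after any 2 bases, was in 3 of 32 subunit promoters (9.38%: Psmb3, Psmd4 and Psmd9), against 3.99% of all genes. TTCNNNGAA, the gamma-activated site, was in 2 of 32 (6.25%), against 9.55% of all genes. Those were Psmb8, with a negative log2 difference, and Psmd2, with a positive one. The Psmd2 match lay 4 bases after the start. The Psmb8 match lay 97 bases before the RefSeq start, but inside the span of the Psmb8 gene given above. A match describes letters in the window only.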

How the data were processed

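RNA of quadriceps femoris was sequenced as template-switched complementary DNA amplified over 14 PCR cycles, per the labels' protocols. The submitters' processing notes name minimap2, DESeq2 1.6.3 and GRCm38; no label gives the read counter, annotation release or strand use. The authors deposited raw counts per gene, which sum to 1436099 to 1712975 per library. PCR reads carry no molecular identifiers, so floors of 3 counts cover counting error only.

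The deposited counts were tested with edgeR 4.0.16 (R 4.3.3; filterByExpr with minimum count 10 and total 15, TMM, robust quasi-likelihood fit, Benjamini-Hochberg adjustment over 6680 genes, threshold 0.05), comparing 3 KO with 3 WT libraries. Intervals are 95% intervals. Alternatives were other scalings and filters, DESeq2 1.42.0, limma 3.58.1 (voom) and leaving out each library. The test was tried on simulated counts with known changes. Every library was treated as separate. Within a genotype, library pairs differed by more than counting noise (chi-square per degree of freedom 2.26 to 6.47). That spread cannot tell separate mice from repeat preparations of the same mouse, since PCR also adds spread. The authors also deposited CPM values, their counts over a library total of which the listed genes hold 95.9% to 96.9%, per the file's columns; the CPM given here were recomputed from the counts. Coordinates, overlaps and coding lengths came from the GENCODE annotation of GRCm38, and promoters from RefSeq.

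The members and gene lists were chosen with earlier results of these data known. Named singly were the subunits past the threshold, the inducible subunits and their counterparts, the highest, lowest and 2 smallest-p genes of each family, the ubiquitin receptor, scaffold and deubiquitinase subunits, the tissue-restricted subunits, and of each related list the genes past the threshold and the 2 with the smallest p. Psma1, Nfe2l1 and the subunits at the ends of the order of levels per length were named after their values were seen.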

Additional observations from a re-analysis of the deposited data

How the results depend on the processing

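The number of subunits called, 3 in the analysis reported, was 1 with DESeq2 size factors in edgeR, 1 with DESeq2, 1 with limma-voom and 14 with library totals. A single call is 2.78% of the tested subunits, near the 2.84%, 2.11% and 2.26% of all genes called higher in those analyses. With library totals the share was 38.9%, against 9.78%. The number was 0 to 3 when each library was left out in turn (0 without WT replicate 1 or WT replicate 2; 1 without KO replicate 1, KO replicate 3 or WT replicate 3). The number of genes called over the whole table, 418, was 801 with library totals (653 higher and 148 lower, against 199 and 219), 706 with no filter, and 237 to 363 when each library was left out. The core median of 0.11 and regulatory median of 0.20 were 0.35 and 0.44 with library totals; leaving out each library gave 0.03 to 0.15 and 0.10 to 0.26. Over the named genes, 325 values kept their side of the threshold, of which 321 kept direction and 4 changed sign within their error (Psmb7 when KO replicate 3 or either of the first WT libraries was left out, and Psmd6 when library sizes omitted the top 20 genes), 34 lost the call, 12 gained one, and 4 turned positive with library totals without a call (Psma3, Psmb6, Psmc5 and Psmd6). The cause was not tested, except that leaving out a library also lowers the number of samples. No paired analysis was possible because the labels give the libraries no shared replicate numbers beyond 1 number that a WT and a KO title have in common. Genes near 10 counts, Psmb8, Psmb9 and Psmb10 among them, are limited by depth.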
